A study of Mus musculus with 5 samples.

Results

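The 10 genes described here encode insulin-like growth factor 1 (Igf1), its receptor (Igf1r), 6 IGF binding proteins (Igfbp2 to Igfbp7) and the docking proteins Irs1 and Irs2. They were selected by gene symbol from the 22683 rows of the table of normalized read counts, and each symbol matched 1 row. The libraries came from mouse satellite cells, the stem cells of skeletal muscle, which were sorted as quiescent cells and processed at once. Genotype was the only labelled difference: 2 libraries came from wild type animals and 3 from mdx, the dystrophic mouse strain whose dystrophin gene is mutated. The sources used here do not give age, sex, strain background, muscle, sorting gate or the number of animals per library, so the p-values are set against the variation among these 5 libraries, part or all of which may be technical.

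IGF1 is a secreted growth factor that binds the tyrosine kinase receptor IGF1R. The activated receptor phosphorylates IRS1 and IRS2, which recruit phosphoinositide 3-kinase and so activate Akt and mTOR, a route that supports growth and survival of muscle and its stem cells. IGF binding proteins hold the ligands outside the cell, and depending on the protein and on its cleavage they withhold IGF from the receptor or deliver it.

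The libraries summed to between 12473348 and 16825045 normalized counts. The mitochondrial ribosomal RNA gene mt-Rnr2 held 2.62% and 3.40% of the wild-type totals and 22.3%, 6.22% and 11.7% of those of mdx 1, 2 and 3. Dmd, the dystrophin gene, stood at 11826 and 9266 normalized counts in wild-type cells and at 4642, 4116 and 3700 in mdx. Xist, expressed from the inactive X chromosome of females, stood at 30235 and 30176 in wild-type cells and at 0, 0 and 12 in mdx, and the Y-linked Uty was at 0 in the wild-type pair and at 654, 724 and 584 in mdx. Genotype and sex therefore cannot be told apart in any comparison below. Pax7, the transcription factor that defines satellite cells, was present in all libraries. It stood at 9103 and 7644 in wild-type cells and at 12767, 9751 and 14989 in mdx. The satellite cell markers Myf5 and Calcr stood lower in mdx. Myf5 was at 8140 and 6615 in wild-type cells and at 2603, 1876 and 3671 in mdx. Calcr was at 6646 and 4956 and at 1457, 1282 and 1824. Of 10 satellite cell markers, 2 rose and 7 fell (limma), as given below.

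Of the 10 genes, 7 rose in the libraries of sorted mdx cells, 0 fell and 3 did not pass the test. The test was limma on log2(normalized count + 2) with Benjamini-Hochberg adjustment over 18199 genes and a threshold of 0.05. The summed markers of other muscle cell types were also higher in the mdx libraries and the satellite cell sum was lower, as given below. At an unadjusted limma p under 0.05 there were 8 higher and 0 lower. Over all tested genes, 24.9% were called, 14.6% higher and 10.3% lower. In 8 of the 10, every mdx library lay above every wild-type one and in 0 below, patterns that 28.2% and 23.8% of all tested genes showed. In bulk RNA, more cells of a type and more RNA per cell cannot be told apart. Igfbp2, Igfbp3 and Igfbp6 entered the test only through their mdx values, so a rise was the only direction open to them. Among the other 7, with at least 10 normalized counts in both wild-type libraries, 5 rose, against 12.1% of the 13032 genes that met the same condition. The median log2 fold change of those 7 was 1.20, against 0.13 over all tested genes.

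The difference between the genotypes varied with transcript length in these libraries, which bears on most of the values below. The median log2 fold change was −0.97 over genes whose longest transcript was under 1 kb and −0.13 for 1 to 2 kb. It was 0.14 for 2 to 4 kb, 0.37 for 4 to 7 kb and 0.68 above 7 kb. Igf1r, Irs1 and Igf1 have longest transcripts of 11.41, 9.14 and 7.05 kb, and Igfbp6, Igfbp7 and Igfbp2 of 1.11, 1.20 and 1.31 kb. Each gene is therefore also given after removal of the trend of each library with the length and the GC content of transcripts, called length-corrected here. That correction moved the median log2 fold change of all genes from 0.13 to −0.19, and 5 of the 10 genes were then called higher and 1 lower, against 8.70% and 14.0% of all genes (22.7% in either direction). Among the 7 genes present in wild type, 3 were higher, against 4.49% of genes of that kind.

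**Figure D1:**
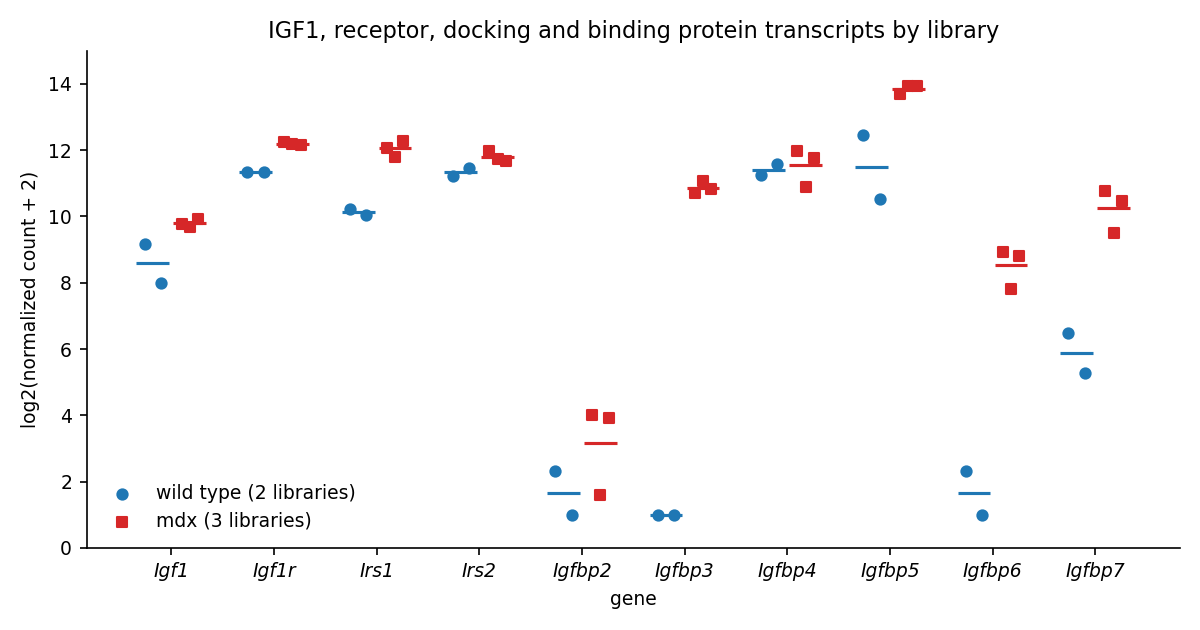
Each point is 1 library (circles, wild type; squares, mdx) and each bar a group mean, on a vertical axis of log2(normalized count + 2). Igfbp3, Igfbp6 and Igfbp7 show the widest separation of the genotypes, while the Igfbp2 and Igfbp4 points overlap.

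The ligand gene Igf1 (chromosome 10, 87858265 to 87937042, plus strand, mm10) was read at 577 and 253 normalized counts in wild-type cells and at 866, 824 and 964 in mdx 1, 2 and 3. The mdx libraries all lay above both wild-type libraries, which themselves differed by more than the mdx libraries did. The rise was 2.30-fold, a log2 fold change of 1.20 (SE 0.36, 95% interval 0.38 to 2.02, limma adjusted p = 0.0400). This call was weak: it ended when wild type 2 or any 1 mdx library was left out (limma adjusted p = 0.117 to 0.226), and the log2 fold change ran from 0.61 without wild type 2 to 1.79 without wild type 1. After length and GC correction it was 0.54 (limma adjusted p = 0.297).

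Igf2, the other IGF ligand and an imprinted gene of fetal growth (chromosome 7, 142650766 to 142666816, minus strand), stood at 1680 and 1187 in wild-type cells and at 8973, 8348 and 11519 in mdx. Its log2 fold change of 2.75 (limma adjusted p = 5.94e-05) was 1.77 once length-corrected (limma adjusted p = 4.36e-04). Its locus overlaps that of Igf2os, with 0 counts in either wild-type library and 0, 40 and 17 in mdx. Per kilobase of transcript, the level of Igf2 was 4.35 and 7.01 times that of Igf1 in the wild-type libraries and 15.5, 15.1 and 17.8 times in mdx, so Igf2 was the more abundant ligand transcript in every library and more so in mdx. The genotypes did not overlap in this ratio, but 2 against 3 libraries cannot give an exact two-sided permutation p below 0.2, which is the value found.

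The receptor gene Igf1r (chromosome 7, 67952827 to 68233668, plus strand) had the most even values of the 10. It was read at 2583 and 2610 in wild-type cells and at 4906, 4662 and 4544 in mdx. The genotypes were clearly apart and the spread within each was small, 2596 ± 19.1 (SD, n = 2) against 4704 ± 185 (SD, n = 3). The rise was 1.81-fold (log2 fold change 0.86, SE 0.16, 95% interval 0.49 to 1.22, limma adjusted p = 0.00541), and it was called with any 1 mdx library left out. The log2 fold change ran from 0.83 to 0.88 with any 1 library left out. The rise did not outlast the length and GC correction, which gave −0.24 (95% interval −0.60 to 0.13, limma adjusted p = 0.313), or −0.05 once the median of all genes was set to 0.

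Of 3 related receptor genes tested, 1 rose and 0 fell (limma). Insr, encoding the insulin receptor, which can pair with IGF1R in hybrid receptors, had 988 and 949 normalized counts in wild-type cells and 1601, 1536 and 1276 in mdx and did not pass (log2 fold change 0.60, 95% interval 0.11 to 1.08, limma adjusted p = 0.0732). Igf2r, encoding the receptor that carries IGF2 to lysosomes for degradation, rose 2.00-fold, from 9030 and 6518 to 15335, 14633 and 16220 (limma adjusted p = 0.00335), with a log2 fold change of −0.08 once length-corrected (limma adjusted p = 0.730). In level per kilobase, Igf1r stood at 2.14 and 2.26 times Insr in wild-type cells and at 2.51, 2.49 and 2.92 times in mdx. The difference between the log2 fold changes of Igf1r and Insr was 0.26, and −0.01 once length-corrected.

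Irs1 (chromosome 1, 82233101 to 82291416, minus strand) and Irs2 (chromosome 8, 10984681 to 11008458, minus strand) encode the docking proteins that couple the receptor to phosphoinositide 3-kinase. Irs1 was read at 1199 and 1056 in wild-type cells and at 4284, 3568 and 5000 in mdx. All mdx libraries lay far above both wild-type ones, and Irs1 rose 3.77-fold (log2 fold change 1.91, SE 0.20, 95% interval 1.45 to 2.38, limma adjusted p = 2.98e-04). The call held with any 1 mdx library left out, and the log2 fold change ran from 1.79 to 2.04 with any 1 library left out. The call also held once length-corrected, where the log2 fold change was 0.86 (95% interval 0.38 to 1.34, limma adjusted p = 0.0203).

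Irs2 was read at 2404 and 2813 in wild-type cells and at 3998, 3388 and 3241 in mdx. The mdx libraries lay above the wild-type ones, but the difference did not pass (log2 fold change 0.44, SE 0.18, 95% interval 0.02 to 0.86, limma adjusted p = 0.114). Its direction depended on the processing. Quantile normalization gave a called log2 fold change of 0.63 (limma adjusted p = 0.0383), and length and GC correction gave a called one of −0.82 (limma adjusted p = 0.0137), or −0.63 with the median of all genes set to 0 (limma adjusted p = 0.0413).

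The balance between the docking proteins was less sensitive to these choices. Per kilobase of transcript, the level of Irs2 was 2.90 and 3.85 times that of Irs1 in wild-type cells and 1.35, 1.37 and 0.937 times in mdx 1, 2 and 3, so Irs2 was clearly the more abundant in wild-type cells and close to level with Irs1 in mdx. The log2 fold change of Irs1 exceeded that of Irs2 by 1.47 as deposited and by 1.68 once length-corrected. Wild-type and mdx libraries did not overlap in this ratio (exact two-sided permutation p = 0.2, the smallest this design allows).

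**Figure D2:**
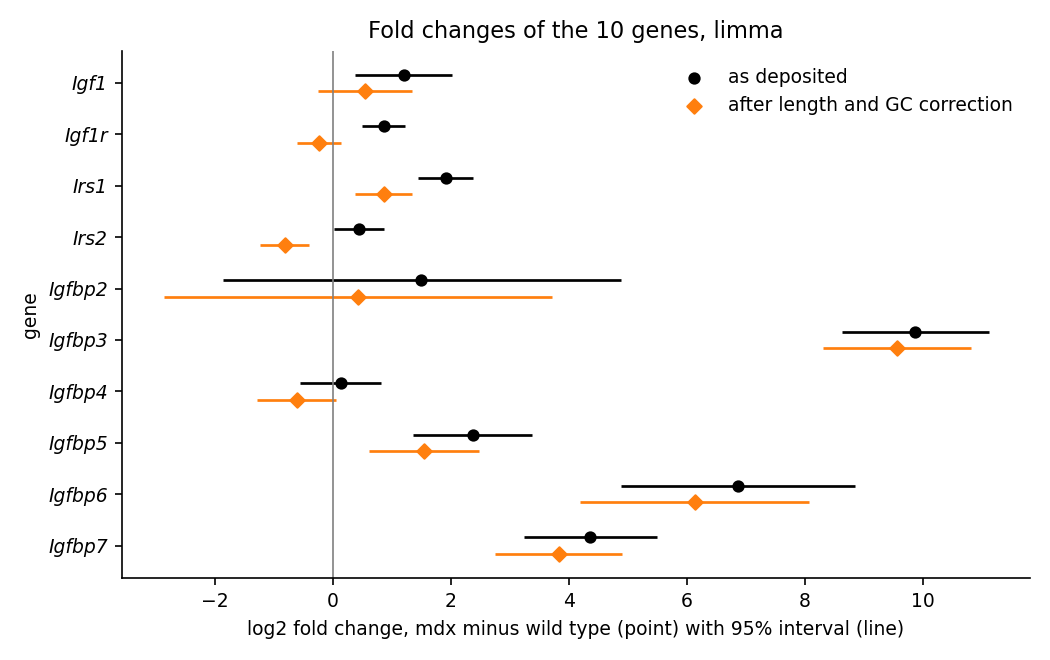
Points are limma log2 fold changes (mdx minus wild type) and lines their 95% intervals, for the values as deposited (black circles) and once length-corrected (orange diamonds). The correction took Igf1r from 0.86 to −0.24 and Irs2 from 0.44 to −0.82, and left Igfbp3 at 9.56, Igfbp6 at 6.13 and Igfbp7 at 3.83.

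Among the binding proteins, Igfbp5 was the most abundant member in mdx and Igfbp3 changed the most. Igfbp3, Igfbp5, Igfbp6 and Igfbp7 rose and were also called once length-corrected, while Igfbp4 and Igfbp2 did not pass in either fit.

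Igfbp5 (chromosome 1, 72857932 to 72874884, minus strand), a matrix-associated binding protein with a known part in myoblast differentiation, was read at 5676 and 1464 in wild-type cells and at 13326, 15788 and 15626 in mdx. The mdx values were close together and the wild-type ones far apart. The rise was 5.15-fold (log2 fold change 2.37, SE 0.45, 95% interval 1.35 to 3.38, limma adjusted p = 0.00561). Its size was 1.39 without wild type 2 and 3.34 without wild type 1, fits that cannot see the spread between the wild-type libraries. The call ended without mdx 1, 2 or 3 (limma adjusted p = 0.0602, 0.0638 and 0.0705) and with no filter on low values (0.0999). After length and GC correction the log2 fold change was 1.55 (limma adjusted p = 0.0275).

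Igfbp2, a binding protein with an integrin-binding motif, is the neighbour of Igfbp5 on chromosome 1 (72824503 to 72852474, plus strand). No other gene of the table lies in the 5457 bases between them. It was nearly absent, at 3 and 0 in wild-type cells and at 14, 1 and 13 in mdx, and the libraries overlapped. In reads estimated from the worth of 1 read in each library these were 3 in wild-type cells and 26 in mdx, a ratio of 6.75 with an exact 95% interval of 2.07 to 34.8 that covers counting error only, and limma did not call it (adjusted p = 0.491). A neighbouring position did not go with a similar level.

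Igfbp3 (chromosome 11, 7206086 to 7213923, minus strand) encodes the main IGF carrier of blood plasma. It was at 0 in the wild-type pair and at 1655, 2151 and 1817 normalized counts in mdx. Against a floor of 3 normalized counts per wild-type library, the mdx mean was at least 625-fold higher, and the lowest mdx library at least 552-fold (limma adjusted p = 1.31e-05, and 2.27e-05 once length-corrected). Igfals, encoding the acid-labile subunit that joins IGF and IGFBP3 in plasma, was nearly absent, at 0 and 3 in wild-type cells and at 4, 18 and 29 in mdx, a difference that was not called (limma adjusted p = 0.265).

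Igfbp6 (chromosome 15, 102144362 to 102149511, plus strand), which binds IGF2 in preference to IGF1, was read at 3 and 0 in wild-type cells and at 488, 222 and 449 in mdx. All mdx libraries were high, mdx 2 the least so. The ratio of estimated reads was 287 (exact 95% interval 98.1 to 1396, counting error only), with limma adjusted p = 7.46e-04. The fitted log2 fold change of 6.86 ran from 6.20 without wild type 2 to 7.52 without wild type 1, and its length-corrected value was 6.13 (limma adjusted p = 0.00153).

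Igfbp7 (chromosome 5, 77349240 to 77408041, minus strand), a secreted protein of vessel walls that binds IGF only weakly, was read at 87 and 37 in wild-type cells and at 1735, 722 and 1416 in mdx. It rose 20.6-fold (log2 fold change 4.36, SE 0.50, 95% interval 3.23 to 5.50, limma adjusted p = 4.37e-04). Its log2 fold change was 4.96 without wild type 1, 3.77 without wild type 2 and 3.83 once length-corrected (limma adjusted p = 8.58e-04). Its locus overlaps that of Polr2b on the other strand, an RNA polymerase II subunit gene that stood at 2525 and 2891 in wild-type cells and 1447, 1428 and 1403 in mdx. The antisense RNA gene Gm34648 also overlaps it, at 0 in either wild-type library and at 0, 131 and 18 in mdx. The strand setting of the counting is not given in the sources used here, so reads of Igfbp7 and of these genes cannot be told apart where they overlap.

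Igfbp4 (chromosome 11, 99041244 to 99054392, plus strand), which restrains IGF action until the protease PAPP-A cleaves it, was read at 2410 and 3053 in wild-type cells and at 3989, 1906 and 3448 in mdx. The lowest value of all belonged to mdx 2, and the genotypes overlapped. Its log2 fold change of 0.13 did not pass (SE 0.30, 95% interval −0.56 to 0.82, limma adjusted p = 0.790), the interval leaving room for changes in either direction, and was −0.61 once length-corrected (limma adjusted p = 0.166).

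Markers of other cell types of muscle moved with genotype as well. Over all tested genes, 14.6% were called higher and 10.3% lower (limma). Of 10 endothelial markers, 10 rose, and their summed level was 171 to 317 normalized counts in wild-type cells and 19405 to 27661 in mdx. Of 10 macrophage markers, 9 rose (416 to 596 against 10374 to 15551). Of 10 fibro-adipogenic markers, which mark mesenchymal cells between fibers, 9 rose and 1 fell (18362 to 26772 against 86717 to 146529). Of 8 pericyte and smooth muscle markers, 4 rose and 1 fell (3348 to 3781 against 9050 to 10622), and of 5 tenocyte markers 4 rose (60 to 150 against 7151 to 17392). Of 7 myofiber markers, 3 rose (3195 to 3717 against 28540 to 71838), and of 5 Schwann cell markers all 5 (51 to 107 against 519 to 1073). Of 10 satellite cell markers, 2 rose and 7 fell, and their sum was 73513 to 85108 in wild-type cells and 35158 to 50389 in mdx. Once length-corrected, 0 satellite cell markers rose and 6 fell. The numbers that rose were then 3 for pericytes and smooth muscle, 3 for tenocytes and 4 for Schwann cells. The counts of the endothelial, macrophage, fibro-adipogenic and myofiber lists were unchanged. Among the defining markers, the macrophage gene C1qa was at 0 in both wild-type libraries, Adgre1 and the endothelial Kdr were at 0 in wild type 2, the fibro-adipogenic Pdgfra was at 0 in wild type 1, and the pericyte gene Kcnj8 was at 0 in mdx 1. The part of these cell types in the values of the 10 genes, and in those of the other pathway genes, was not tested.

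**Figure D3:**
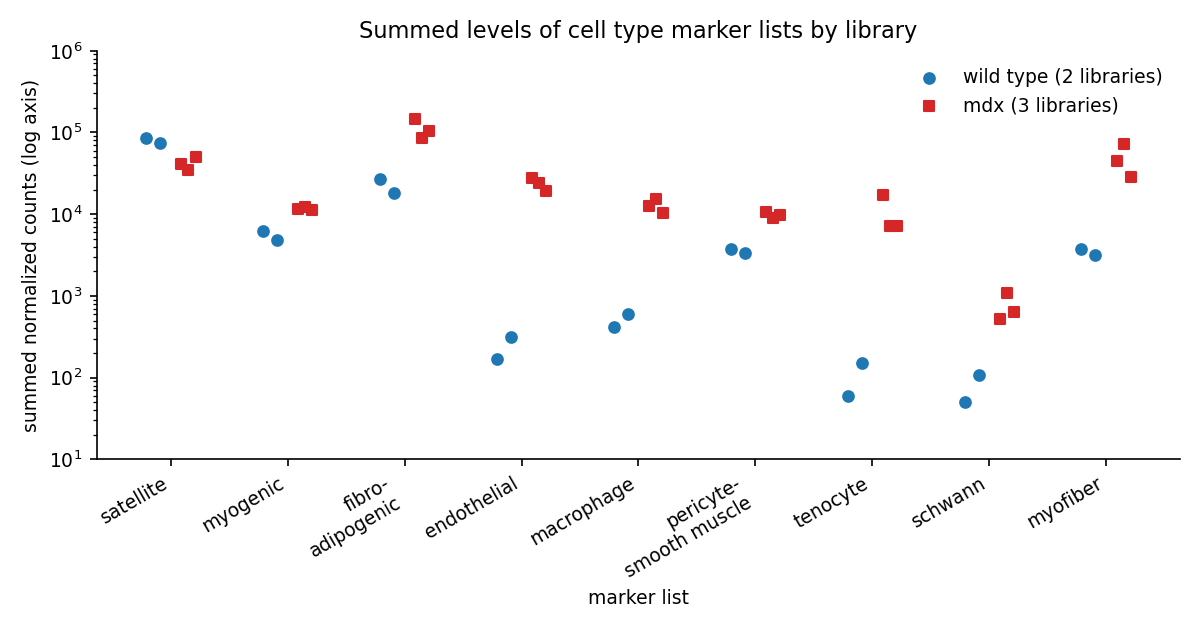
Points give the summed normalized counts of each marker list in each library on a log axis (circles, wild type; squares, mdx). The satellite cell sum was lower in mdx (35158 to 50389 against 73513 to 85108), while the endothelial, macrophage and tenocyte sums were the farthest above wild type.

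Put per kilobase of transcript, the 6 binding protein genes together summed to 1652 and 1072 in wild-type cells and to 5839, 4817 and 5846 in mdx. In wild type, Igfbp5 and Igfbp4 made up nearly the whole sum, with 57.2% and 38.1% in wild type 1 and 22.7% and 74.4% in wild type 2. The order of the leading pair thus differed between the 2 wild-type libraries and cannot be given for that genotype. In mdx, Igfbp5 led in every library with 38.0%, 54.6% and 44.5%. Igfbp7 held 24.8%, 12.5% and 20.2% there, against 4.39% and 2.88% in wild type. Igfbp3 held 11.7%, 18.4% and 12.8%, and Igfbp6 7.52%, 4.14% and 6.91%, while Igfbp4 held 17.8%, 10.3% and 15.4% with no called change in its own level. These shares are descriptions, with no test.

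**Figure D4:**
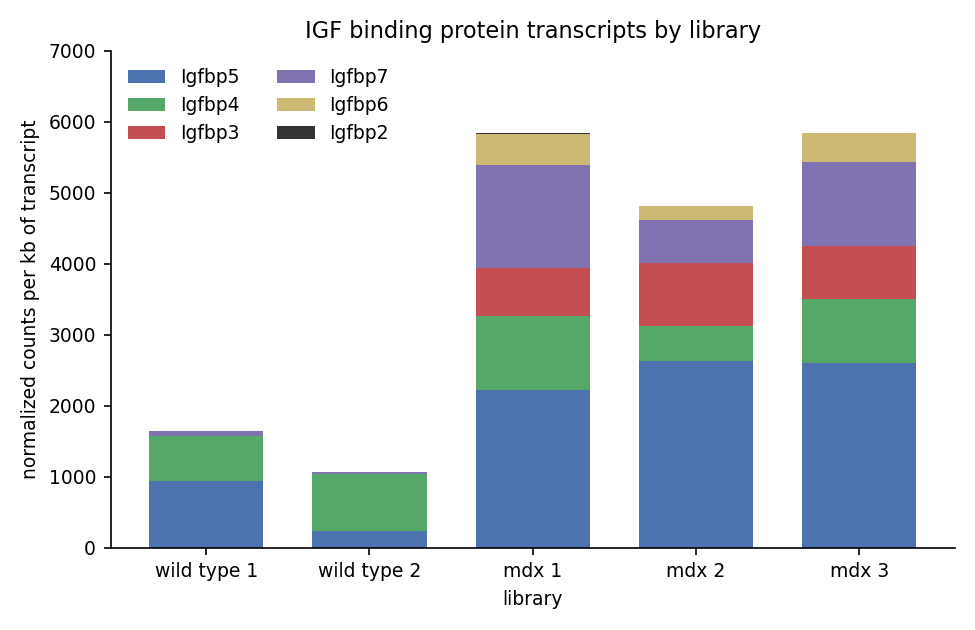
Stacked bars give the normalized counts per kilobase of longest transcript of 6 binding protein genes in each library. The wild-type bars, at 1652 and 1072, are almost entirely Igfbp5 and Igfbp4, and the mdx bars, at 4817 to 5846, also hold Igfbp7, Igfbp3 and Igfbp6.

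In the order of mean level per kilobase in wild type, Igfbp4 (713 ± 119), Igfbp5 (594 ± 496), Irs2 (413 ± 45.7) and Igf1r (228 ± 1.67) came first, followed by Irs1 (123 ± 11.1), Igf1 (58.8 ± 32.5) and Igfbp7 (51.7 ± 29.5) (SD, n = 2). Igfbp6 and Igfbp2 were near 0 and Igfbp3 at 0. The ranges of Igfbp4 and Igfbp5, of Igfbp5 and Irs2, and of Igf1 and Igfbp7 overlapped. Within each wild-type library Igf1 stood above Igfbp7 (81.8 against 72.5 and 35.9 against 30.8), and the order of the other pairs differed between libraries. In mdx the order was Igfbp5 (2483 ± 229), Igfbp7 (1076 ± 432), Igfbp4 (813 ± 282), Igfbp3 (774 ± 104), Irs2 (560 ± 63.5), Irs1 (469 ± 78.3), Igf1r (412 ± 16.2), Igfbp6 (347 ± 129) and Igf1 (125 ± 10.2) (SD, n = 3). Igfbp5 stood above Igfbp7, Igfbp3 above Irs2, Igfbp6 above Igf1 and Igf1 above Igfbp2 in every pair of mdx libraries. The ranges of all the other neighbours overlapped. Within each mdx library Igfbp7 stood above Igfbp4 (1446 against 1041, 602 against 498 and 1180 against 900), and the order of the others differed between libraries. Binding protein transcripts summed to 3.77 and 3.73 times the summed ligand transcripts Igf1 and Igf2 in wild-type cells and to 2.89, 2.56 and 2.27 times in mdx.

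The starts of these genes were of more than one kind. RefSeq promoter sequence (build GRCm38.p6) was found for all 10, and the 250 bases before each start were searched on both strands for 4 motifs. These were the TATA box, spelled TATAAA, the GC box bound by Sp1, spelled GGGCGG, the E-box that MyoD and myogenin prefer, spelled CAGCTG, and the FoxO element, spelled GTAAACA. No motif overlaps another in the windows printed. The bases that follow the RefSeq start were not found in a GENCODE M21 transcript of the same gene for Igf1r, Irs1, Irs2, Igfbp6 and 1 of the Igfbp2 starts, and the RefSeq start of Igf1 lies inside the gene span given above, so which start these cells use is not known for these genes. The TATA box was found in 12.4% of 32841 mouse promoter windows of this length, the GC box in 32.7%, the E-box in 13.0% and the FoxO element in 3.2%. The windows of Igf1r, Irs1, Irs2, Igfbp7 and 1 of the 2 Igfbp2 starts held a GC box, that of Igfbp4 a TATA box and that of Igf1 an E-box, and the FoxO letters were in none. The window of Igfbp6 held the TATA letters on the opposite strand, 148 bases before the start, which is not the position of a TATA box. The GC content was 77.6% for Igf1r, 74.0% for Igfbp7, 73.2% for Igfbp3, 72.8% for Irs2 and 72.4% for Irs1, against a median of 52.4% over all windows. Of the 7 genes that rose, Igf1r, Irs1 and Igfbp7 held a GC box and Igf1 an E-box. The windows of Igfbp3 and Igfbp5 held none of the 4 exact spellings. Variants of these spellings, TATA-like sequences among them, were not searched for. The windows below are shown as 1 example of each kind, 5′ to 3′ on the strand of the gene, with the motifs in capitals: Igfbp7, which rose (chr5:77408046-77408295, minus strand, 4 GC boxes); Igfbp4, which did not pass (chr11:99040994-99041243, plus strand, TATA motif starting 28 bases before the start); and Igf1, the ligand (chr10:87860861-87861110, plus strand, E-box starting 157 bases before the start).
Igfbp7: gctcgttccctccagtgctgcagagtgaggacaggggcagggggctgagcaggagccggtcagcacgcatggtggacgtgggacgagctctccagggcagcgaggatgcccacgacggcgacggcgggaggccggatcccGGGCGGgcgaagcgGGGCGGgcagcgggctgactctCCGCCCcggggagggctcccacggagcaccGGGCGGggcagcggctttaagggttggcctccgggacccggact
Igfbp4: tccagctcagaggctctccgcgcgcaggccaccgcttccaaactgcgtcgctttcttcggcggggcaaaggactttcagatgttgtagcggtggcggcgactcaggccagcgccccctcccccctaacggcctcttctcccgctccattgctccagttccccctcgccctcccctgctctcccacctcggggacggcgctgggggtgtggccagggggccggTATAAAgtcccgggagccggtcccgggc
Igf1: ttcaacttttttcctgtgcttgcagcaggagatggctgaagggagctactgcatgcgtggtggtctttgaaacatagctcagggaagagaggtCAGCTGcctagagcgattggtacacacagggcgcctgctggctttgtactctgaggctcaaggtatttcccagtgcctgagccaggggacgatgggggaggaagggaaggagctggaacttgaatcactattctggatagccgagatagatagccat

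The other genes of the pathway were taken from a list of 66 genes in 9 roles, of which 61 were in the table and tested, 6 of them only through their mdx values. Of these, 18 rose (29.5%), 7 fell (11.5%) and 36 did not pass, against 14.6% and 10.3% of all genes, and their median log2 fold change was 0.68. Without mdx 1, 2 or 3, the numbers that rose were 11, 10 and 11, and without mdx 1 or 2, 4 fell. After length and GC correction 4 rose and 16 fell (6.56% and 26.2%, against 8.70% and 14.0% of all genes), with a median of −0.08. With the median of all genes then set to 0, the counts were 6 and 12. Called in the same direction in both fits were 4 genes that rose and 7 that fell. Of the 4, Pappa and Adam12 entered the test with the help of their mdx values, as given below.

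Of 6 genes for proteases of IGF binding proteins and their inhibitors, Pappa and Adam12 rose, both called in both fits. Each had at least 10 normalized counts in only 1 wild-type library and entered the test with the help of its mdx values. All 1868 genes called lower had at least 10 in both wild-type libraries. In practice a rise was therefore the only direction open to Pappa and Adam12. Htra1, encoding a secreted serine protease, was read at 744 and 838 in wild-type cells and at 665, 228 and 476 in mdx. It was called lower in the length-corrected values (log2 fold change −1.43, limma adjusted p = 0.0384, against −0.92 and 0.156 as deposited, which did not pass). With the median of all genes then set to 0, Htra1 was at −1.25 and was not called (limma adjusted p = 0.0658). Pappa, encoding the protease PAPP-A that frees IGF from IGFBP4 and IGFBP5, was read at 27 and 0 in wild-type cells and at 476, 433 and 392 in mdx (log2 fold change 5.83, SE 1.05, limma adjusted p = 0.00439). Adam12, encoding a metalloprotease reported to cleave IGFBP3 and IGFBP5, was read at 14 and 0 and at 790, 788 and 525 (log2 fold change 6.93, SE 0.89, limma adjusted p = 7.62e-04). The log2 fold changes ran from 3.90 to 7.76 for Pappa and from 5.43 to 8.43 for Adam12 with 1 library left out, the low ends without wild type 2 and the high ends without wild type 1. The Pappa call ended without mdx 1, 2 or 3 (limma adjusted p = 0.0526 to 0.0573).

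Of 9 adaptors, 1 rose and 1 fell, and 0 and 1 once length-corrected (limma). Sh2b1, an enhancer of receptor signalling, rose 2.61-fold, from 506 and 465 to 1222, 1208 and 1387. Shc1, which links the receptor to the Ras route, fell 2.18-fold, from 1446 and 1776 to 618, 694 and 918, and was called in both fits, but not without mdx 1 or 2 (limma adjusted p = 0.0582 and 0.0620). Of 12 brakes of the pathway, 3 rose and 1 fell, and 0 and 1 once length-corrected (limma). Inppl1, a lipid phosphatase gene, rose 2.82-fold, from 569 and 647 to 1685, 1887 and 1593. Grb10, an imprinted gene whose product inhibits IGF1R and the insulin receptor, rose 1.94-fold, from 5642 and 4393 to 8966, 11002 and 9206. Phlpp1, encoding an Akt phosphatase, rose 2.49-fold, a call that ended without mdx 1, 2 or 3 (limma adjusted p = 0.0540 to 0.0866). Socs3, an inhibitor of cytokine and insulin signalling, fell 1.95-fold, from 11160 and 12448 to 6649, 5088 and 6543, in both fits, but its log2 fold change was −0.29 after quantile normalization (limma adjusted p = 0.309). The rises of Sh2b1, Inppl1, Grb10 and Phlpp1 were not called once length-corrected (log2 fold changes 0.19, 0.36, 0.36 and 0.19). With the median of all genes then set to 0, Grb10 was called higher (log2 fold change 0.55, limma adjusted p = 0.0295) and the others were not.

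Of 10 genes for phosphoinositide 3-kinase and Akt, 4 rose and 0 fell (limma), whereas 1 rose and 4 fell once length-corrected. The falls were those of Pik3ca, Pik3r1, Pdpk1 and Akt2 (log2 fold changes between −1.09 and −0.70). With the median of all genes then set to 0, Pdpk1 and Akt2 stayed called. Pik3ca and Pik3r1 did not (limma adjusted p = 0.0983 and 0.0766). The rises as deposited included the catalytic subunit genes Pik3cb, from 29 and 17 to 169, 282 and 150, and Pik3cd, from 30 and 32 to 248, 186 and 150. Both calls ended without mdx 1, 2 or 3 (limma adjusted p = 0.0557 to 0.0733), and only that of Pik3cb was made in the length-corrected values too. Pik3r2, a regulatory subunit gene, rose 2.28-fold and was not called in fits that left out mdx 1 or 3 (limma adjusted p = 0.108 and 0.110). Of 13 genes of the TSC and mTOR step, 4 rose and 3 fell, and 0 rose and 6 fell once length-corrected (limma). Mtor rose 2.46-fold, from 675 and 838 to 2186, 1535 and 1899. Rptor, encoding its partner raptor, and Tsc2, encoding the brake tuberin, rose 2.35-fold and 1.94-fold, calls that ended without mdx 2 or 3 and, for Rptor, also without mdx 1 (limma adjusted p = 0.0581 to 0.0918). Mtor, Rptor, Tsc2 and Pik3r2 had log2 fold changes of 0.08, −0.04, −0.13 and −0.16 once length-corrected.

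The 3 falls of the mTOR group as deposited were targets of the kinase or components of translation, each called in both fits. Rps6, a ribosomal protein gene, fell 3.11-fold, from 8970 and 12249 to 2775, 3123 and 4431. Eif4e, encoding the cap-binding factor, fell 2.81-fold, from 1058 and 1661 to 535, 379 and 514, and Rps6kb1, encoding S6 kinase, 2.02-fold. Tsc1, Rictor and Deptor were called lower in the length-corrected values and not as deposited, with log2 fold changes of −0.84, −1.05 and −1.01. With the median of all genes then set to 0, Tsc1 was not called (limma adjusted p = 0.0870). Rictor and Deptor stayed called (limma adjusted p = 0.0127 and 0.0142). The Rps6kb1 call ended without wild type 2 or any 1 mdx library (limma adjusted p = 0.0804 to 0.129).

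Among the 6 FoxO and GSK3 genes, Akt substrates that are restrained when the pathway is active, 2 rose and 2 fell, and 0 rose and 3 fell once length-corrected (limma). Gsk3b rose 2.19-fold, from 1111 and 934 to 2370, 2473 and 1913, and Gsk3a fell 2.81-fold, from 1174 and 1721 to 593, 500 and 431. Foxo1, a factor of the resting state that induces Irs2 in other tissues, fell 1.49-fold, from 2972 and 3445 to 2228, 2094 and 2104 (limma adjusted p = 0.0432), a call that ended without wild type 2 or any 1 mdx library (0.0830 to 0.214). Foxo6 was listed at 0 in the wild-type pair and at 64, 74 and 71 in mdx, and, tested through its mdx values only, it could not have been called lower. The falls of Gsk3a and Foxo1 were called in both fits, and the rises of Gsk3b and Foxo6 only in the fit to the deposited values. With the median of all genes set to 0 after the correction, Gsk3b was called higher (log2 fold change 0.61, limma adjusted p = 0.0481). Foxo6 was not (2.65, limma adjusted p = 0.134).

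**Figure D5:**
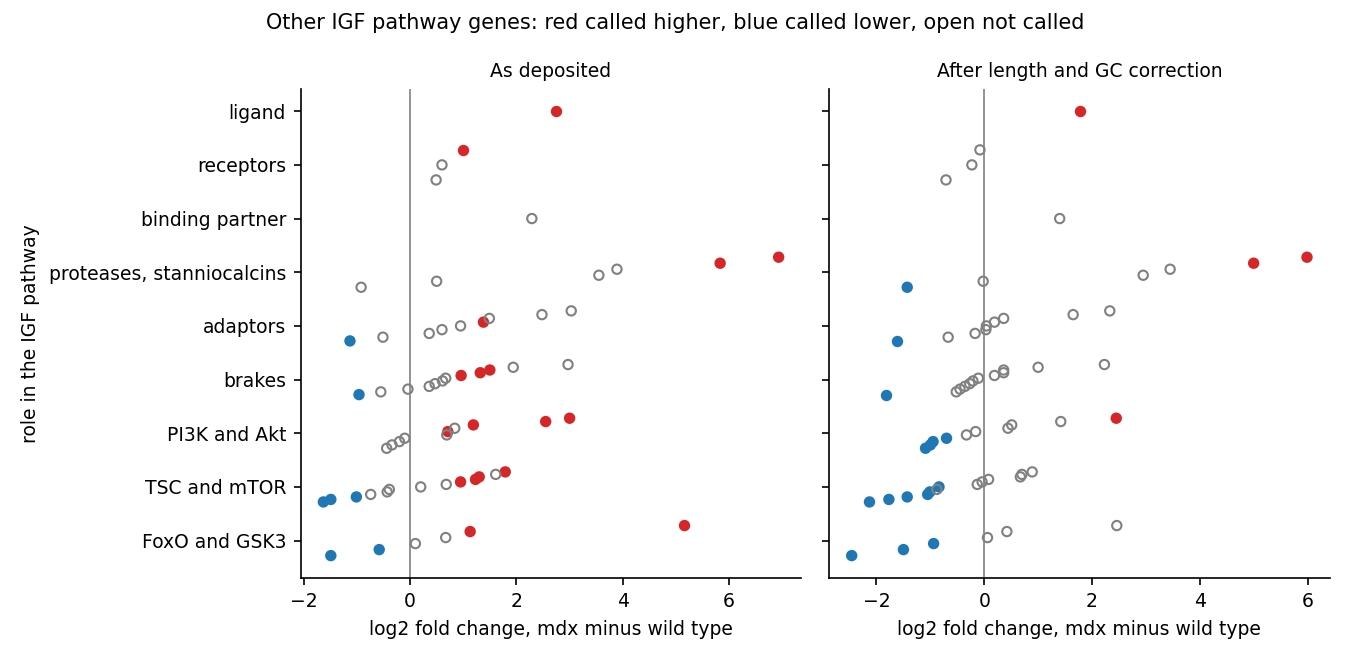
Each point is 1 of 61 tested genes of the IGF pathway outside the 10, grouped by role, with its limma log2 fold change (mdx minus wild type) on the horizontal axis, as deposited (left) and once length-corrected (right). Red points were called higher, blue lower and open circles neither: 18 and 7 were called on the left and 4 and 16 on the right.

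The genes closest in pattern were sought by the root-mean-square difference of gene-centred log2 values over the 5 libraries, among 10601 genes with a mean of at least 100. For Igf1r these were Ylpm1 (0.024), 5031439G07Rik (0.034) and Rock1 (0.046), and 397 genes lay within 0.2, so its pattern was a common one. For Igf1 they were Nudcd3 (0.055), Maea (0.061) and Adamts5 (0.064), with 75 genes within 0.2. For Igfbp5, the binding protein with the highest mean, they were Sipa1l3 (0.140), Sh3pxd2b (0.145) and Magi3 (0.162), with 7 genes within 0.2. These distances describe the 5 libraries and share their genotype, sex and depth.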

How the data were processed

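RNA from sorted satellite cells was sequenced in 5 libraries (2 wild type, 3 mdx) with a stranded total RNA kit, per the labels' protocols. The submitters' processing notes name STAR 2.6.1d, featureCounts 1.6.3, DESeq2 1.18.1 and mm10. The deposited whole numbers are treated as a score: normalized counts that the authors divided by a size factor per library and rounded, as read from the values, since each library's median ratio to the means of genes was the same (1.035) and 6 of the whole numbers from 1 to 30 were absent in mdx 1. The spacing of the values gives the worth of 1 read, and from it an estimated depth of 12800000 to 19600000 reads. Ratios of estimated reads rest on it, and their intervals cover counting error only.

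Values were transformed to log2(normalized count + 2), and 18199 genes with at least 10 in at least 2 libraries were fitted with limma 3.58.1 (R 4.3.3; mean trend, robust) with genotype as the only term. P-values are two-sided. Fold changes are on the log2(value + pseudocount) scale and understate those of low genes. Length and GC content came from the longest GENCODE M21 transcript (22649 of 22683 identifiers found), and each library's trend, fitted by robust regression on splines, was removed. The fit was tested on simulated data. A floor of 3 counts limits values at 0.

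The 10 genes, the gene lists and the tests were chosen with earlier results of these data known. Pathway genes named are Igf2, Igf2r, Insr, Pappa and, per role, up to 3 called genes of smallest p in each direction. Added after their values were seen were Igfals, Igf2os, Polr2b, Pax7, Myf5, Calcr, mt-Rnr2, Gm34648 and Htra1. So were the PI3K and mTOR genes lower once length-corrected but not as deposited. A marker list for myogenic commitment was also read (all 5 tested genes rose, and 3 once length-corrected). Of the pathway list, Ins1, Ins2, Igfbp1, Igfbpl1 and Irs4 were not analysed here.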

Additional observations from a re-analysis of the deposited data

How the results depend on the processing

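Over 16 alternatives, the 10 genes gave 157 values. Of these, 132 kept direction and call, 15 kept direction but lost a call, 2 kept direction and gained one, and 8 changed direction. The 8 include Igf1r, which lost its call, and Irs2, which was called lower, under either form of the length and GC correction. Igfbp3, Igfbp6, Igfbp7 and Irs1 were called higher in every alternative that kept both wild-type libraries. For Igfbp3 and Igfbp6, tested through their mdx values, a rise was the only direction open. Of the 16, 2 were chosen after seeing the data: library totals counted without the 2 most abundant genes, and the length and GC correction with the median of all genes set to 0. Length and GC correction turned Igf1r to −0.24, Igfbp4 to −0.61, Irs2 to −0.82, Insr to −0.23, Igf2r to −0.08, Pik3r2 to −0.16, Tsc2 to −0.13 and Rptor to −0.04, and with the median set to 0 Igf1r, Igfbp4, Irs2 and Insr stood at −0.05, −0.42, −0.63 and −0.04. Igfbp4 was also −0.04 without wild type 1, and between −0.08 and 0.45 without 1 mdx library. Of the 10 genes, 1 was then lower under either form of the correction. Without mean trend and robust moderation, limma called 4 of the 10 higher, 9 pathway genes higher and 0 lower (5 lower at an unadjusted p under 0.05), and 1150 of all genes lower. Pathway genes called higher numbered 4 and 6 under the 2 forms of the correction and 28 with equal totals without the 2 most abundant genes, and those called lower 16, 12 and 3, or 4 with equal totals. All genes called higher numbered 1581 once length-corrected, where 38.4% of calls were higher instead of 58.7%, and 1055 were called lower with totals without the 2 most abundant genes (78.9% higher), or 67.7% higher with equal totals. Scaling to these totals moved the median log2 fold change of all genes to 0.60 and 0.32.

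With 1 library left out, 5 to 7 of the 10 genes were called higher and 0 lower, 10 to 22 pathway genes higher and 4 to 8 lower, and 1450 to 3308 of all genes higher and 1112 to 1853 lower, the low ends without an mdx library; a lone wild-type library was assumed to vary like the mdx ones. The deviations of same-numbered libraries from their group means were almost uncorrelated (r = −0.014 and −0.017). The wild-type deviations mirror each other, so these values cannot decide whether the numbers pair the libraries. With the replicate number as a block, 8 pathway genes were higher and 3 lower, 1163 of all genes higher and 860 lower, and Igf1 and Igf1r were not called (limma adjusted p = 0.120 and 0.0542). The cause of these differences was not tested.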
